A study of Rattus norvegicus with 6 samples.

Results

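The genes that cells switch on to copy their DNA and to divide were examined in hearts of 6 male rats aged 8 weeks, of the outbred Sprague–Dawley strain and with no engineered allele named in the labels. For 7 days, 3 rats received ISO under the skin at 1.5 mg/kg/day and 3 received the same volume of saline. The series addresses heart muscle overgrowth and scarring, which the treatment was given to induce. ISO is the labels' abbreviation. It is taken here to mean isoproterenol, a drug that activates beta-adrenergic receptors and is used to enlarge and scar the rodent heart. Total RNA from heart tissue was sequenced as 1 library per rat, and the libraries are named saline 1 to 3 and ISO 1 to 3 by the numbers in their labels. Which region of the heart was sampled is not stated in the labels. Of 32 listed S phase and mitosis genes, 31 were found by symbol among 32883 named rows of the count table, and all 31 passed the filter on low counts that kept 13766 genes. Ccnb2, the gene of cyclin B2, was not analysed here. The list was taken as given and not selected on expression in these hearts, although it was drawn up with earlier results of the same data known.

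Dividing cells make these RNAs in 2 waves. In late G1 and S phase, E2F transcription factors are released from retinoblastoma proteins and drive the replication genes. In G2 and mitosis, complexes that include FOXM1 and B-MYB act at CHR elements, often beside CCAAT boxes, on the genes of the mitotic cyclins, kinases and spindle. In quiescent cells the DREAM complex keeps the same elements silent. Most cardiomyocytes of the adult rodent heart have left the cell cycle, whereas fibroblasts, macrophages and endothelial cells can divide, and in bulk tissue fewer cells of a type and less RNA per cell cannot be told apart.

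The libraries held 14880391 to 17299589 counts. Across the genome, edgeR's quasi-likelihood test called 203 genes higher and 206 lower in ISO at a Benjamini-Hochberg adjusted p under 0.05. Without scaling for composition the calls were 280 higher and 123 lower, and the median log2 fold change of all tested genes moved from 0.02 to 0.13. The cardiac myosin gene Myh6 had between 178070 and 343516 counts in every library. ISO 1 stood apart by its atrial genes, since 5 atrial markers summed to 189 CPM there and to between 2.22 and 4.18 CPM in the other libraries. CPM here are counts per 1000000 counts of tested genes, scaled by the trimmed mean of M values (TMM), and 3 counts correspond to between 0.175 and 0.204 CPM.

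No S phase or mitosis gene was called in either direction, where the test called 1.47% of all tested genes higher and 1.50% lower. The fitted log2 fold change of ISO over saline was above 0 for 28 of the 31 genes, with a median of 0.75, against 0.02 over all tested genes. The 3 genes below 0 were Mcm2, Mcm5 and Pcna, of which Mcm2 and Pcna lay above 0 without scaling. Before adjustment, 6 genes (Kif11, Tpx2, Birc5, Ccna2, Top2a and Cdk1) had an edgeR p under 0.05, all with higher values in ISO, as had 12.0% of tested genes in that direction. The same 6 genes met the series' own threshold, applied here to the edgeR fit, of an unadjusted p under 0.05 and an absolute log2 fold change over 0.5, which 8.67% of tested genes met as higher. DESeq2 called 1 gene, Kif11 (DESeq2 adjusted p = 0.0428), where it called 5.46% of tested genes higher. Values of all 3 ISO libraries lay above all 3 saline libraries for Birc5 alone among the 31, against 14.1% of tested genes. The smallest edgeR adjusted p among the 31 genes was 0.148.

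**Figure D1:**
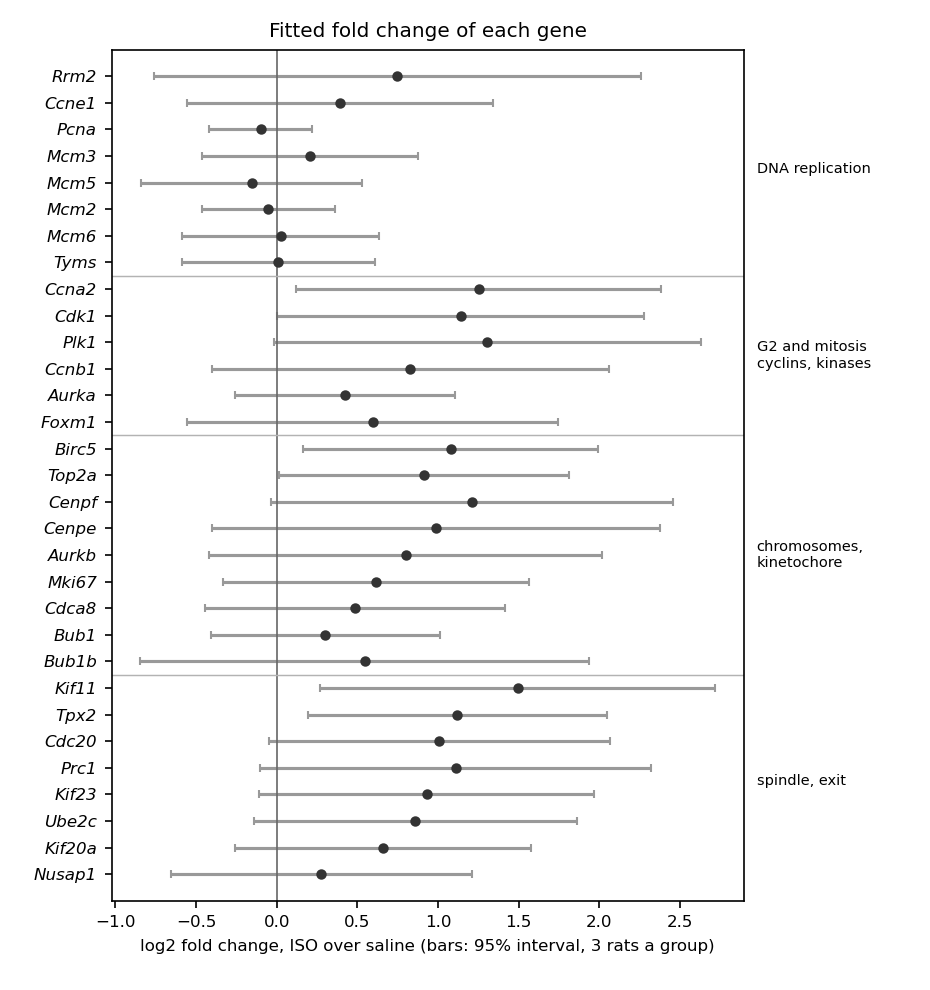
Fitted log2 fold change of ISO over saline for the 31 genes in 4 role groups (points, edgeR, 3 rats a group) with 95% intervals (bars). Intervals of 6 genes lie above 0 before any adjustment, and most replication genes sit near 0.

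The 3 ISO libraries differed widely among themselves, by a median of 2.96-fold between the highest and the lowest over the 31 genes. ISO 3 was the highest of all 6 libraries for 29 of the 31 genes, where it was the highest for 24.2% of all tested genes. ISO 3 stood above ISO 1 and ISO 1 above ISO 2 in 30 of 31 genes, an order found in 25.0% of tested genes, and the exception was Aurka. This order was noticed after the values were seen. Relative to the mean CPM of the saline libraries, the median ratio over the 31 genes was 2.53 in ISO 3, 1.41 in ISO 1 and 0.801 in ISO 2. ISO 1 lay above every saline library for 17 genes, as it did for 33.0% of tested genes. It lay within the saline range for 14, against 36.0% of tested genes. ISO 2 lay within the saline range for 17 genes, below every saline library for 12 and above for Aurka and Birc5 only. Over all tested genes ISO 2 lay within that range for 36.8%, below it for 31.3% and above it for 31.9%. The saline libraries were not uniform either. Saline 2 was the highest of them for 29 of 31 genes, as it was for 37.1% of tested genes, and the highest saline value exceeded the lowest by a median of 1.76-fold.

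The median log2 fold change of the 31 genes followed this spread. In fits that kept genes of low count it was 0.74 with all libraries, 0.17 without ISO 3 and 1.14 without ISO 2. The fit without ISO 3 left 23 of the 31 above 0 and none at an unadjusted p under 0.05. The fit without ISO 2 brought 17 genes to that level and called 3 of them higher, Cenpf at 1.64 (SE 0.34, edgeR adjusted p = 0.0399), Kif11 at 1.89 (SE 0.39, edgeR adjusted p = 0.0408) and Tpx2 at 1.44 (SE 0.31, edgeR adjusted p = 0.0453). That fit called 3.50% of its tested genes higher, against 1.47% with all libraries. The share of all tested genes at the unadjusted level in these leave-out fits is not given here. The 17 genes can therefore not be set against the genome. Leaving out saline 2, the saline library richest in these RNAs, gave a median of 1.08 and no call.

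**Figure D2:**
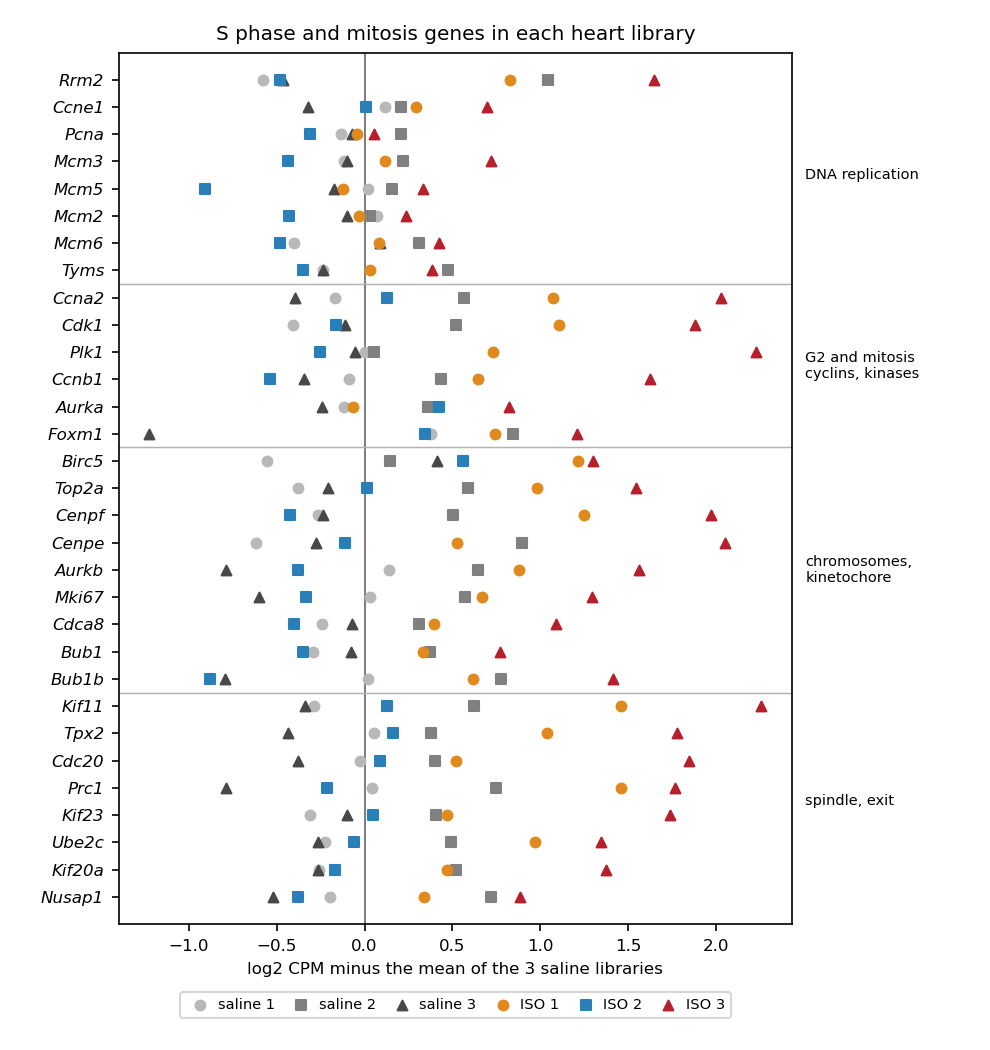
Log2 CPM of each gene in each library minus the mean of the 3 saline libraries, by role group. ISO 3 (red triangles) is the highest point for 29 of 31 genes, against 24.2% of all tested genes. ISO 2 (blue squares) lies among the saline points for 17, against 36.8% of all tested genes.

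The promoters of the genes were read for the elements named above. RefSeq promoters of build GRCr8, each from 250 bases before to 50 bases after the annotated start, matched 26 of the 32 listed genes, Ccnb2 included. The search covered both strands for the CCAAT box (CCAAT), the CHR element (TTTGAA or TTCGAA) and an E2F element (TTTCCCGC, TTTCGCGC, TTTGCCGC or TTTGGCGC). The forward and reverse E2F letters can overlap each other, and a CHR match can overlap a CCAAT box. A CHR match was present in 13 of 19 promoters of G2 and mitosis genes, in 1 of 7 of replication genes (Mcm2) and in 19.7% of all 33469 promoters of the same length. An E2F match was present in 5 of the 7 replication promoters, in 1 of the 19 (Cdk1) and in 2.14% of all promoters. At least 1 CCAAT box was found in 16 of 19 and in 4 of 7, against 37.5% of all promoters. A CHR match together with 2 or more CCAAT boxes occurred in 9 of 19 and in none of the 7, against 2.30% of all. These matches describe letters and not bound sites.

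The 250 bases before the start are shown for Top2a, Cdk1 and Cdc20, the genes with the smallest p among those with a CHR match and 2 or more CCAAT boxes in that stretch, and for Mcm5, the replication gene with the most E2F matches there. Capitals mark CCAAT boxes and CHR matches, on either strand, in the first 3 sequences and E2F matches in Mcm5. They lie at chr10:84473094-84473343 (minus strand), chr20:19265043-19265292 (plus strand), chr5:137255800-137256049 (minus strand) and chr19:13488563-13488812 (plus strand) of GRCr8, and each is written 5′ to 3′ on the strand of its gene.
Top2a: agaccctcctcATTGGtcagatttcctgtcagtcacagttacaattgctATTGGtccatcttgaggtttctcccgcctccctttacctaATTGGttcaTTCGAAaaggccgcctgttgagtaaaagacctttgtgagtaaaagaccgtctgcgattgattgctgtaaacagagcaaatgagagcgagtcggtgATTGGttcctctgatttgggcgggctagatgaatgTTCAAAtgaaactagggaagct
Cdk1: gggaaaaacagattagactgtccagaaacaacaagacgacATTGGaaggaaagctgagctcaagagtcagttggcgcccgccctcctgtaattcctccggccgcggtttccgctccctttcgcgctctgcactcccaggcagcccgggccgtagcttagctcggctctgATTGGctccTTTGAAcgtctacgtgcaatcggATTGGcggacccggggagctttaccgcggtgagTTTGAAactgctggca
Cdc20: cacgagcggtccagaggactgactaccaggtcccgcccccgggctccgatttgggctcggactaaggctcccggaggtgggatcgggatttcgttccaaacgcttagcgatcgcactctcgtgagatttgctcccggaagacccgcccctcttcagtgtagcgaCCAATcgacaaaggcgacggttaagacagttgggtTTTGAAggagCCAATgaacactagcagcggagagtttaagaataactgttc
Mcm5: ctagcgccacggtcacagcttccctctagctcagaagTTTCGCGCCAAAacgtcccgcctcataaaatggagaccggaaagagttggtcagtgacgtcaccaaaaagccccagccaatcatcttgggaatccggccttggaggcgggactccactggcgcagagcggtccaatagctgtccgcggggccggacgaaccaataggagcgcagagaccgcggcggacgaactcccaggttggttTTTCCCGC
Top2a held 4 CCAAT boxes and 2 CHR matches, Cdk1 held 3 and 2 and Cdc20 held 2 and 1. Mcm5 held 3 E2F matches, 2 of them overlapping, and no CHR match.

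**Figure D3:**
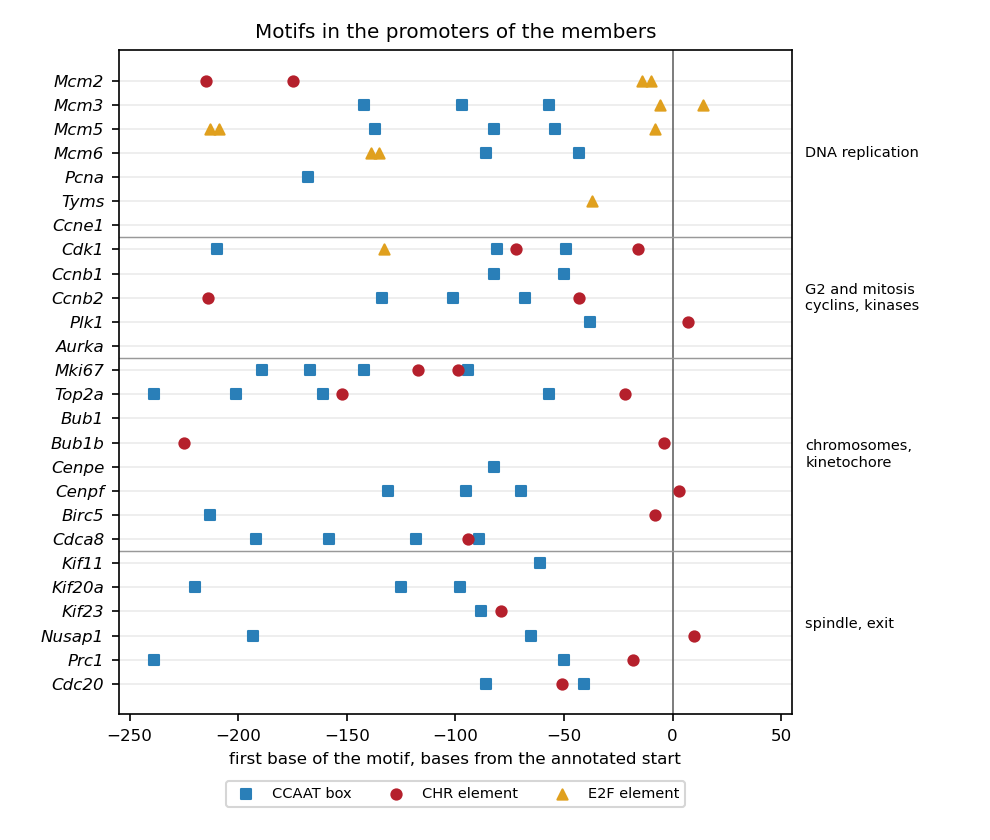
Position of each motif match (first base, counted from the annotated start, on the horizontal axis) in the 26 promoters, 1 row per gene. CHR matches fall in 13 of 19 G2 and mitosis promoters and in 1 of 7 replication promoters, and E2F matches show the opposite split, with 1 of 19 and 5 of 7.

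The 8 DNA replication genes had a median log2 fold change of 0.02. Pcna encodes the sliding clamp that holds DNA polymerase on its template. Its CPM were 36.2, 45.9 and 37.7 in saline 1 to 3 and 38.5, 32.0 and 41.3 in ISO 1 to 3. The groups overlapped, with ISO 2 the lowest library and saline 2 the highest, and the change was −0.10 (SE 0.14, 95% interval −0.42 to 0.22, edgeR adjusted p = 0.715). Mcm2, Mcm3, Mcm5 and Mcm6 encode subunits of the helicase loaded at replication origins. For Mcm2 the CPM were 17.6, 17.1 and 15.6 in saline and 16.4, 12.4 and 19.7 in ISO. For Mcm5 they were 8.51, 9.38 and 7.45 in saline and 7.71, 4.43 and 10.6 in ISO. All 4 helicase genes had their highest value in ISO 3 and their lowest in ISO 2, and their log2 fold changes ran from −0.15 to 0.20. The 95% interval of Mcm2 ran from −0.47 to 0.36.

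Tyms makes the thymidine nucleotide for DNA and Rrm2 is the regulated subunit of ribonucleotide reductase. Tyms stood at 9.81, 16.1 and 9.79 CPM in saline and 11.8, 9.04 and 15.1 CPM in ISO, a change of 0.01 (SE 0.26). Rrm2 stood at 0.749, 2.56 and 0.821 CPM in saline and 2.19, 0.811 and 3.97 CPM in ISO. It followed the mitotic genes more than the helicase genes in its ratio of ISO 3 to the saline mean, which was 2.88 against 1.18 to 1.65 for the 4 Mcm genes. The difference between those ratios was not tested. The log2 fold change of Rrm2 was 0.75 (SE 0.66, edgeR adjusted p = 0.541), and only 11 to 68 counts stood behind each value. Ccne1, the cyclin E1 gene that starts S phase with CDK2, had the fewest counts of the list, 12, 14 and 9 in saline and 15, 12 and 22 in ISO. The groups overlapped, and the change of 0.39 had a 95% interval of −0.55 to 1.34.

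The cyclins and kinases that carry cells through G2 and into mitosis had a median of 0.98 over 6 genes. Cdk1, the kinase that triggers mitosis, stood at 2.25, 4.38 and 2.78 CPM in saline 1 to 3 and at 6.64, 2.68 and 11.4 CPM in ISO 1 to 3. ISO 1 and ISO 3 lay above every saline library and ISO 2 within the saline range. The log2 fold change was 1.14 (SE 0.50, edgeR adjusted p = 0.218), and 0.57 without ISO 3. Ccna2, the cyclin A2 partner of CDK2 and CDK1, had CPM of 2.32, 3.94 and 1.96 in saline and 5.64, 2.87 and 11.1 in ISO. It showed the same arrangement, with a change of 1.25 (SE 0.49, edgeR adjusted p = 0.181) that was 0.64 without ISO 3.

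Plk1, a polo-like kinase needed for spindle assembly, varied least among the saline hearts of all 31 genes. Its CPM were 2.11, 2.19 and 2.02 in saline and 3.57, 1.75 and 10.3 in ISO. ISO 3 was at 4.90 times the saline mean, the highest such ratio in the list, and ISO 2 was below every saline library. The fitted change was 1.31 (SE 0.58, edgeR adjusted p = 0.224), and 0.34 without ISO 3. Ccnb1, the cyclin B1 gene, stood at 1.84, 2.69 and 1.52 CPM in saline and 3.13, 1.31 and 6.30 CPM in ISO. Again ISO 2 lay below every saline library, and ISO 3 was at 3.13 times the saline mean.

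Aurka, the centrosomal Aurora kinase, departed from that order, with 3.75, 5.25 and 3.41 CPM in saline and 3.88, 5.49 and 7.29 CPM in ISO, so that ISO 2 exceeded ISO 1. Foxm1 encodes the transcription factor of the mitotic programme. It stood at 3.13, 4.38 and 0.948 CPM in saline and 4.07, 3.06 and 5.66 CPM in ISO, and its saline libraries differed 4.62-fold, the widest saline spread of the 31. Its change was 0.60 (SE 0.50, edgeR adjusted p = 0.518).

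The 9 genes of chromosomes, kinetochores and the spindle checkpoint had a median of 0.80. Mki67, which coats mitotic chromosomes and is the usual marker of cycling cells, had 14.2, 20.6 and 9.10 CPM in saline and 22.1, 11.0 and 34.2 CPM in ISO. ISO 2 lay between saline 3 and saline 1, ISO 1 just above saline 2 and ISO 3 well above both. The change was 0.62 (SE 0.41, 95% interval −0.33 to 1.56, edgeR adjusted p = 0.411), and 0.18 without ISO 3. Top2a, the topoisomerase that untangles replicated chromosomes, had 8.11, 15.9 and 9.16 CPM in saline and 21.0, 10.7 and 31.0 CPM in ISO. Its change was 0.92 (SE 0.39, edgeR adjusted p = 0.212), and 0.52 without ISO 3.

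Birc5 encodes survivin, which with Aurkb and Cdca8 forms part of the chromosomal passenger complex. Its CPM were 0.681, 1.19 and 1.45 in saline and 2.63, 1.62 and 2.80 in ISO, from 10 to 48 counts. Each ISO value lay above each saline value, and the change was 1.08 (SE 0.40, edgeR adjusted p = 0.16). Its partners did not separate in this way. Aurkb stood at 3.00, 4.31 and 1.52 CPM in saline and 5.07, 2.06 and 8.23 CPM in ISO, and Cdca8 at 2.18, 3.25 and 2.46 against 3.45, 1.93 and 5.66 CPM. For Cdca8 ISO 2 was below every saline library, and for Aurkb it lay between saline 3 and saline 1.

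Cenpf and Cenpe are large kinetochore proteins, the second of them a kinesin motor. Cenpf had 2.66, 4.63 and 2.72 CPM in saline and 7.83, 2.37 and 13.0 CPM in ISO, a change of 1.21 (SE 0.54, edgeR adjusted p = 0.229) that was 0.62 without ISO 3. Its ISO values spanned 5.49-fold, with ISO 2 under every saline library. Cenpe had 2.11, 6.25 and 2.72 CPM in saline and 4.82, 3.06 and 14.1 CPM in ISO, so ISO 3 alone lay above saline 2. Bub1 and Bub1b, genes of the spindle checkpoint, had log2 fold changes of 0.30 (SE 0.31) and 0.54 (SE 0.61), and ISO 2 was the lowest of all 6 libraries for both. Without ISO 3 these values were 0.0074 and −0.08.

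The 8 genes of the spindle, the midzone and mitotic exit had a median of 0.97. ISO 2 lay within the saline range for all 8, as it did for 36.8% of tested genes. Kif11, the motor that pushes spindle poles apart, gave the largest fitted change of the 31 genes. Its CPM were 1.84, 3.56 and 1.77 in saline 1 to 3 and 6.45, 2.50 and 11.3 in ISO 1 to 3. ISO 1 and ISO 3 stood apart from saline and ISO 2 did not. The log2 fold change was 1.50 (SE 0.53, 95% interval 0.27 to 2.72, edgeR adjusted p = 0.148), and 0.90 (SE 0.49) without ISO 3.

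Tpx2, which activates Aurora A on the spindle, had 4.56, 5.75 and 3.22 CPM in saline and 9.15, 4.93 and 15.3 CPM in ISO. Its change was 1.12 (SE 0.40, edgeR adjusted p = 0.152), and 0.64 without ISO 3. Prc1, which bundles microtubules at the midzone, had 5.38, 8.88 and 2.97 CPM in saline and 14.6, 4.49 and 18.1 CPM in ISO. Here ISO 1 came closer to ISO 3 than for most of these genes, at 2.54-fold against 3.15-fold of the saline mean. Kif23 and Kif20a, kinesins of cytokinesis, had log2 fold changes of 0.93 (SE 0.45) and 0.66 (SE 0.40), with ISO 3 at 3.35-fold and 2.53-fold of the saline mean. Nusap1, a microtubule-binding protein, had the smallest change of the group at 0.28 (SE 0.41), and −0.07 without ISO 3.

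Cdc20 and Ube2c serve the anaphase-promoting complex, as its activator and its ubiquitin-conjugating enzyme. Cdc20 had 3.75, 5.07 and 2.91 CPM in saline and 5.51, 4.05 and 14.0 CPM in ISO, a change of 1.01 (SE 0.46, edgeR adjusted p = 0.235). Its ISO 1 value was little above saline 2, and the change was 0.29 without ISO 3. Ube2c had 1.43, 2.44 and 1.39 CPM in saline and 3.45, 1.62 and 4.49 CPM in ISO, a change of 0.86 (SE 0.44).

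Further genes of the same pathways, none of them among the 31, were read in the same fit. Of 67 other mitosis genes tested none was called, 62 had a log2 fold change above 0 and the median was 0.84. Those with the smallest p were Cenpm, a centromere protein gene, at 1.98 (SE 0.47, edgeR adjusted p = 0.0611) and Spc24, a subunit of the NDC80 kinetochore complex, at 1.19 (SE 0.36, edgeR adjusted p = 0.105). ISO 3 was the highest library for 58 of the 67. Of 47 other replication genes tested none was called, 30 lay above 0 and the median was 0.07. Among them Pola2, a subunit of DNA polymerase alpha, gave −0.68 (SE 0.22, edgeR adjusted p = 0.124) and Gins3, a helicase cofactor, 0.99 (SE 0.43, edgeR adjusted p = 0.217). ISO 3 was the highest for 22 of the 47. At an unadjusted edgeR p under 0.05 the mitosis list had 17 higher and 1 lower, and the replication list 1 higher and 1 lower. Over all 13766 tested genes, 1651 (12.0%) were higher and 1498 lower at that level. DESeq2 called 5 genes of the mitosis list and 1 of the replication list in either direction. Over all tested genes it called 752 higher and 653 lower.

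Among 25 G1 regulators, edgeR called 3 lower and none higher, where it called 1.50% of tested genes lower. At an unadjusted edgeR p under 0.05, 2 were higher and 4 lower, and 11 had a log2 fold change above 0. The log2 fold change of Ccnd2 was −1.14 with an SE of 0.17 (edgeR adjusted p = 0.0178). Mycn fell by 1.93 on the log2 scale, with an SE of 0.30 (edgeR adjusted p = 0.0205), and Ccnd1 fell by 0.93, with an SE of 0.16 (edgeR adjusted p = 0.026). These RNAs of cyclin D2, N-Myc and cyclin D1 were lower in each ISO library than in any saline library, as were 14.6% of tested genes. All 3 calls were lost without saline 1 (edgeR adjusted p = 0.068, 0.0716 and 0.0705 in the same order), without saline 3 (0.0945, 0.11 and 0.121) and without ISO 1 (0.0617, 0.0592 and 0.0524). Mycn and Ccnd1 were also not called without saline 2 (edgeR adjusted p = 0.0685 and 0.0894), nor Ccnd1 without ISO 3 (0.0528).

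**Figure D4:**
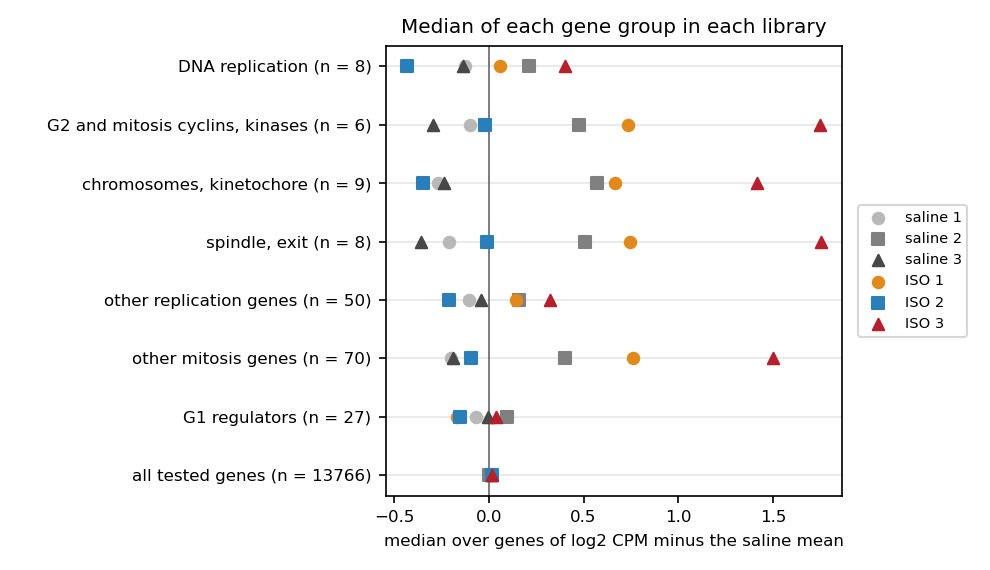
Median over the genes of each group of log2 CPM minus the saline mean, 1 point per library. ISO 3 lies at 1.42 to 1.75 for the 3 mitotic groups and at 0.40 for DNA replication, and ISO 2 lies between −0.43 and −0.01 in the same 4 groups.

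In ISO 3 the median log2 difference from the saline mean was 0.40 for replication genes and 1.75, 1.42 and 1.75 for the cyclin and kinase, chromosome and spindle groups. In ISO 1 the medians were 0.06, and 0.74, 0.66 and 0.75. In ISO 2 they were −0.43, and −0.02, −0.35 and −0.01, so that library had replication RNAs below the saline mean and mitotic RNAs near or below it. Saline 2 had 0.21, and 0.48, 0.57 and 0.51. These 4 libraries had lower medians for replication than for the other groups. In saline 3 the replication median was higher, at −0.14 against −0.30, −0.24 and −0.36, and in saline 1 it lay among them, at −0.13 against −0.10, −0.27 and −0.21. The difference between groups was not tested.

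Summed markers of some other cell types also differed between these libraries. The 10 macrophage markers summed to 292 to 339 CPM in saline and to 588, 495 and 841 CPM in ISO 1 to 3, with 4 of 10 called higher. The 9 fibroblast markers summed to 3306 to 4178 CPM in saline and to 9363, 7531 and 20250 CPM in ISO, with 3 of 9 called higher. Over all tested genes 1.47% were called higher. Both sums had the order ISO 3, ISO 1, ISO 2 of the mitotic genes. In the fibroblast sum of ISO 3, Col1a1 took 6356 CPM, Col3a1 8160 CPM and Postn 2025 CPM. The order did not hold for Pdgfra, at 185, 166 and 182 CPM in ISO 1 to 3, for Tcf21, at 25.9, 21.0 and 22.5 CPM, or for the macrophage gene Cd163, at 58.8, 44.2 and 51.6 CPM, all 3 highest in ISO 1. ISO 2 lay above every saline library in both sums, which the S phase and mitosis genes did not show, with a sum of 160 CPM in ISO 2 against 165 to 255 CPM in saline. By gene, every ISO library exceeded every saline library for 9 of 10 macrophage and 8 of 9 fibroblast markers, against 14.1% of tested genes. The exceptions lay in ISO 2. Cd14 was there inside the saline range, at 10.2 CPM, and Col1a2 below every saline library, at 195 CPM against 198 to 282 CPM. The 9 cardiomyocyte markers summed to 34900, 42400 and 27000 CPM in ISO 1 to 3, against 35570 to 48730 CPM in saline. ISO 3 had the lowest sum, ISO 1 also lay below every saline library and ISO 2 lay within the saline range. The 7 endothelial and 7 mural markers summed to between 0.862 and 1.21 times the saline mean in the ISO libraries. Of the 7 endothelial genes none was called, with 2 log2 fold changes above 0 and 5 below. Vwf stood at 709 CPM in ISO 1 against 244 to 343 CPM in saline. Kdr lay below every saline library in each ISO library, at 110, 182 and 119 CPM against 193 to 209 CPM, a separation found in 14.6% of tested genes. Of the 7 mural genes none was called, with 5 log2 fold changes above 0 and 2 below. Pdgfrb alone among them lay above saline in each ISO library, at 128, 148 and 150 CPM against 93.7 to 111 CPM. Acta2 stood at 72.9, 59.6 and 112.5 CPM in ISO 1 to 3 against 61.6 to 69.4 CPM in saline. The part of these cell types in the values of the S phase and mitosis genes was not tested.

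Markers of blood-forming and lymphoid cells, which can divide rapidly, were read too. None of these lists had a gene called higher, where the test called 1.47% of all tested genes higher. Many of these markers did not pass the filter and so could not be called. Tested were 0 of 4 B cell, 1 of 5 thymocyte and 2 of 6 neutrophil genes. For red cell precursors 6 of 6 were tested, and for T cells 6 of 7. The part of blood-forming and lymphoid cells in the values of the S phase and mitosis genes was not tested. The thymocyte genes Rag1, Rag2 and Ptcra had 0 counts in all 6 libraries, and Dntt had at most 7. Cd1d1, the remaining gene of the thymocyte list, held nearly all of its counts, from 324 (ISO 1) to 500 (saline 3) per library. The log2 fold change of Cd1d1 was −0.22 (SE 0.17, edgeR adjusted p = 0.487), and the groups overlapped. The 4 B cell markers summed to at most 1.20 CPM in any library. The 6 red cell precursor markers summed to 31.6 to 55.5 CPM in saline and to 23.0, 31.7 and 13.9 CPM in ISO, and 1 of the 6 was called lower. Alas2 had 311 to 694 counts in saline and 253, 373 and 117 in ISO. Epor, the 1 gene of the list with a log2 fold change above 0, had 9 to 16 counts in saline and 24, 28 and 18 in ISO. The neutrophil precursor gene Elane had 0 counts throughout and Mpo had 1 count, in saline 2. The 6 neutrophil markers summed to 2.08 to 5.04 CPM in saline and to 2.26, 1.43 and 4.38 CPM in ISO. Members of this list did not all move the same way. Csf3r exceeded all saline libraries in each ISO library, as did 14.1% of tested genes. Its log2 fold change was 1.30 (SE 0.56, edgeR adjusted p = 0.212). It supplied 55 of the 75 neutrophil marker counts of ISO 3. S100a8, which did not pass the filter, had 2 to 3 counts per ISO library against 6 to 22 per saline library. S100a9 gave −1.11 (SE 0.61, edgeR adjusted p = 0.311), with overlapping groups. The 7 T cell markers summed to 97.5 CPM in ISO 3 against 37.3 to 45.1 CPM in saline, of which Cd4, also made by rat macrophages, took 1305 counts and Cd8a 173, while Cd3e had 26 counts in ISO 3 and 16 to 30 in saline.

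**Figure D5:**
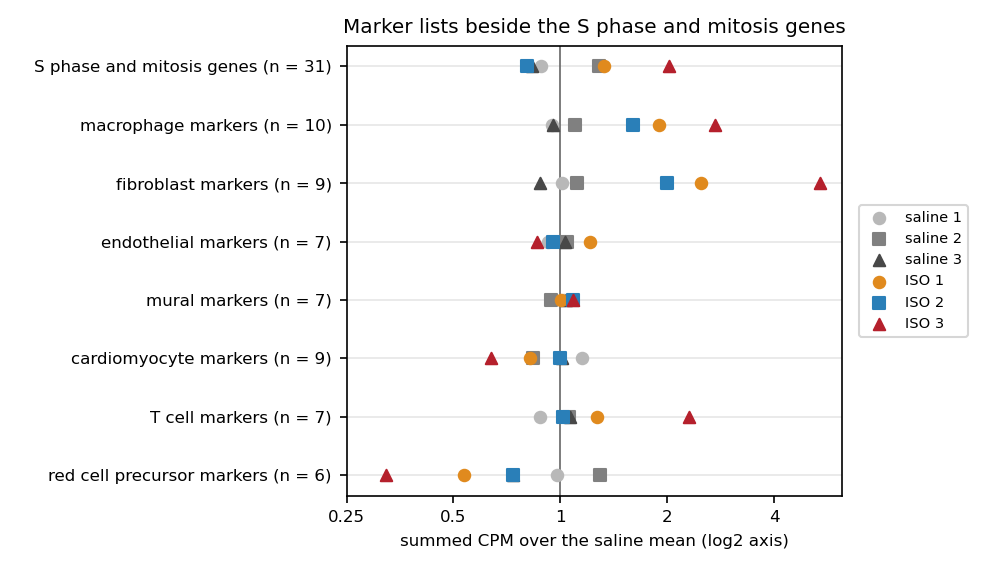
Summed CPM of each marker list in each library divided by the mean of the saline libraries (log2 axis), beside the 31 S phase and mitosis genes. Macrophage and fibroblast markers lie above all saline points in the 3 ISO libraries, while the S phase and mitosis genes do so in ISO 1 and ISO 3 only. The margin in ISO 1 is narrow, with a sum of 263 CPM against 255 CPM in saline 2.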

How the data were processed

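Reads were paired, and the authors used HISAT2 against the rat genome and featureCounts, per the series description. The deposited values are raw read counts, 1 column per library. Tool versions and the strand setting were not found in the labels, and reads of a gene and of its antisense partner may therefore be mixed. The processing notes list a mouse build, whereas the named rows carry rat identifiers. Rows without a gene name (0.981% to 1.32% of counts) were left out. Where rows shared a symbol, the one with most counts kept it. No library duplicated another within counting noise.

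Counts were tested with edgeR 4.0.16 (R 4.3.3), using TMM scaling and the default filter. P-values were adjusted over all 13766 genes. Standard errors are the log2 fold change divided by the square root of F, and 95% intervals use the matching t quantile. Log2 CPM used a prior count of 2. The members and lists were chosen with earlier results of these data known. By rule, per-library values and tests were given for Mki67, Top2a, Cdk1, called genes and the 3 smallest p of each role group, and from each pathway list for up to 3 called genes or else the 2 smallest p. Other members were added to complete each role. Tested on simulated data for ISO against saline with 13635 genes, edgeR recovered 54% of genes changed 2-fold and 90% of those changed 4-fold, with 16 of 145 calls false. Alternatives were DESeq2 1.42.0, voom of limma 3.58.1, other scaling and filters, other thresholds, a replicate block, each library left out and, added after the data were seen, rows without a name kept.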

Additional observations from a re-analysis of the deposited data

How the results depend on the processing

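No S phase or mitosis gene was called lower under any alternative, and none was called higher except by DESeq2 (1), without ISO 2 (3) and by the series' threshold (6). Leaving out each library in turn gave 0 to 3 member calls, 0 to 6 calls among other mitosis genes and 0 to 4 among G1 regulators. Over all genes it gave 6 to 492 higher and 5 to 346 lower. The median of the 31 genes stayed above 0 in each fit, from 0.17 without ISO 3 to 1.14 without ISO 2. Pcna changed sign without scaling (0.017) and without saline 2 (0.010), and its change ran from −0.18 to 0.010 over the fits that left out 1 library.

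DESeq2 called 752 genes higher and 653 lower, with 5 other mitosis genes and 1 other replication gene. The series' threshold gave 1193 and 619, with 17 other mitosis, 2 other replication and 5 G1 genes. No filter gave 322 higher, no scaling 123 lower, and an adjusted p under 0.01 left 4 higher, 7 lower and 0 G1 genes. With the replicate block 15 genes were higher, 13 lower and 0 G1 regulators were called. The shared numbers do not pair the rats. Deviations of same-numbered libraries correlated at 0.09, −0.10 and 0.02 across genes, and only saline 1 correlated best with its own number. The fewest counts stood behind Ccne1 (9 to 22 per library) and Birc5 (10 to 48), so their relative counting error was the widest of the 31 genes.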

Other observations

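Some dividing-cell genes outside the list had larger fitted changes than any of its members, and they were chosen here after their values were seen. Pttg1, the gene of securin, which inhibits separase until anaphase, stood at 0.545, 0.875 and 0.569 CPM in saline 1 to 3 and at 2.69, 0.686 and 6.24 CPM in ISO 1 to 3. ISO 2 again lay inside the saline range. The change was 2.26 (SE 0.72, edgeR adjusted p = 0.118). Anln, the cytokinesis protein anillin, had 1.70, 3.81 and 1.71 CPM in saline and 6.58, 2.62 and 13.9 CPM in ISO. Cenpm, in contrast, was above every saline library in all 3 ISO libraries, at 1.63, 1.12 and 2.92 CPM against 0.477, 0.500 and 0.442 CPM, from 7 to 50 counts. Such separation was found in 14.1% of tested genes.

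The inhibitor gene Cdkn2c, which encodes p18 and restrains CDK4 and CDK6, was also above saline in each ISO library, as were 14.1% of tested genes. It stood at 10.2, 7.36 and 9.22 CPM in ISO and at 4.50, 5.88 and 4.04 CPM in saline. Its log2 fold change was 0.89, with an SE of 0.22 (edgeR adjusted p = 0.0688). Myc had 8.02, 5.43 and 10.3 CPM in ISO, with ISO 2 inside the saline range (log2 fold change 0.64, edgeR adjusted p = 0.213), whereas Mycn was lower in each ISO library at 2.19, 1.37 and 1.46 CPM against 5.52, 5.44 and 8.21 CPM.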
